A study of Mus musculus with 9 samples.

Results

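The genes described here are 10 genes of autophagy and of mitophagy, its branch for mitochondria, in mouse brown adipose tissue (BAT). They were chosen by name (*Ulk1*, *Becn1*, *Atg5*, *Atg7*, *Map1lc3b*, *Gabarapl1*, *Sqstm1*, *Bnip3*, *Pink1* and *Tfeb*) and matched exactly to the gene symbols of the RNAseq tables. All 10 were found among the 24356 symbols listed, and all 10 were above 0 in every library, which places them among the 14675 genes tested.

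Autophagy encloses part of the cytoplasm in a double membrane and delivers it to the lysosome, where it is broken down and its building blocks are reused. A kinase complex around ULK1 starts the process, a lipid kinase complex around Beclin 1 marks the membrane, and a conjugation system that includes ATG5 and ATG7 attaches proteins of the LC3 and GABARAP family to it. Receptors such as p62 tie cargo to these proteins, while PINK1 and BNIP3 mark mitochondria for removal. Brown fat is rich in mitochondria, and mitophagy is known to take part in the loss of mitochondria from thermogenic fat when demand ends.

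The 9 libraries came from BAT of GHRH-KO mice, which lack growth hormone releasing hormone, and of WT littermates, 1 library per animal. There were 2 KO females, 2 KO males, 3 WT females and 2 WT males. Every animal was of a mixed C57BL6 and 129SV background and ate the same chow, and the labels give no age. Values are FPKM, fragments scaled by transcript length and by library size, so levels can be compared between genes per length. Animals are named by genotype label, sex and a number that serves only as a name.

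The targeted gene ran against the genotype labels. The 4 libraries labelled KO held *Ghrh* at 0.233 to 0.846 FPKM and the 5 labelled WT held it at 0, so groups are called by their labels throughout, and every direction takes the labels as given. The growth hormone receptor gene *Ghr* lay between 42.2 and 51.6 FPKM in libraries labelled KO and between 62.8 and 155 FPKM in those labelled WT. *Igf1*, a growth hormone target, was at 0.713 to 2.46 FPKM in KO and 2.13 to 8.80 FPKM in WT libraries, so that only KO male 1 overlapped. *Igf1* ran the way the labels say, while the labels set no direction for *Ghr*. Depth relative to WT female 1, read from the smallest steps in the values, ran from 0.917 to 1.14. KO male 1 stood apart, with Spearman correlations of 0.950 to 0.955 with the other libraries, while the other pairs reached 0.963 to 0.976. The summed FPKM of 8 lymphocyte markers was 181 in KO male 1 and 1.41 to 2.83 elsewhere (*Cd3d* was at 0 in WT male 1). That of 7 macrophage markers was 263 in KO male 1, 32.2 to 38.3 in the other 3 libraries labelled KO and 49.3 to 117 in those labelled WT. White adipocyte markers summed to 51.0 to 119 in libraries labelled KO and 94.8 to 419 in those labelled WT, and fibroblast markers to 117 to 198 against 144 to 259. The sum of 9 skeletal muscle markers, none of them at 0 in any library, was 2354 to 10741 in libraries labelled KO, highest in KO male 1, and 382 to 2027 in those labelled WT. The sum of 9 brown adipocyte markers overlapped between the labels, at 4741 to 6332 against 4550 to 5772, but within each sex both KO libraries lay above every WT library. In bulk tissue, fewer cells of a type and less RNA per cell cannot be told apart.

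The members were well expressed but at very different levels. *Bnip3*, which encodes a mitophagy receptor of the outer mitochondrial membrane, had the highest level, at 163 ± 32.8 FPKM (mean ± SD, n = 9), above 97.2% of the genes tested. *Pink1* followed at 120 ± 16.6, *Map1lc3b* at 114 ± 11.3, *Gabarapl1* at 94.6 ± 23.2 and *Sqstm1* at 81.7 ± 8.58 FPKM, and the ranges of neighbours in this order overlapped over the 9 libraries. Below a clear step came *Becn1* at 22.8 ± 1.82 FPKM, which lay under *Sqstm1* and over *Atg7* in all 9 libraries. *Atg7* (11.6 ± 2.40), *Ulk1* (10.7 ± 1.15), *Tfeb* (7.78 ± 1.61) and *Atg5* (6.77 ± 0.749 FPKM) formed a lower group whose neighbours overlapped, and *Atg5*, the lowest, still exceeded 63.7% of the genes tested. *Becn1* varied least between libraries, with an SD of 0.12 on the log2 scale, smaller than that of all but 8.2% of the genes tested. *Gabarapl1* varied most, with an SD of 0.35, and 57.9% of the genes tested had a smaller one.

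**Figure D1:**
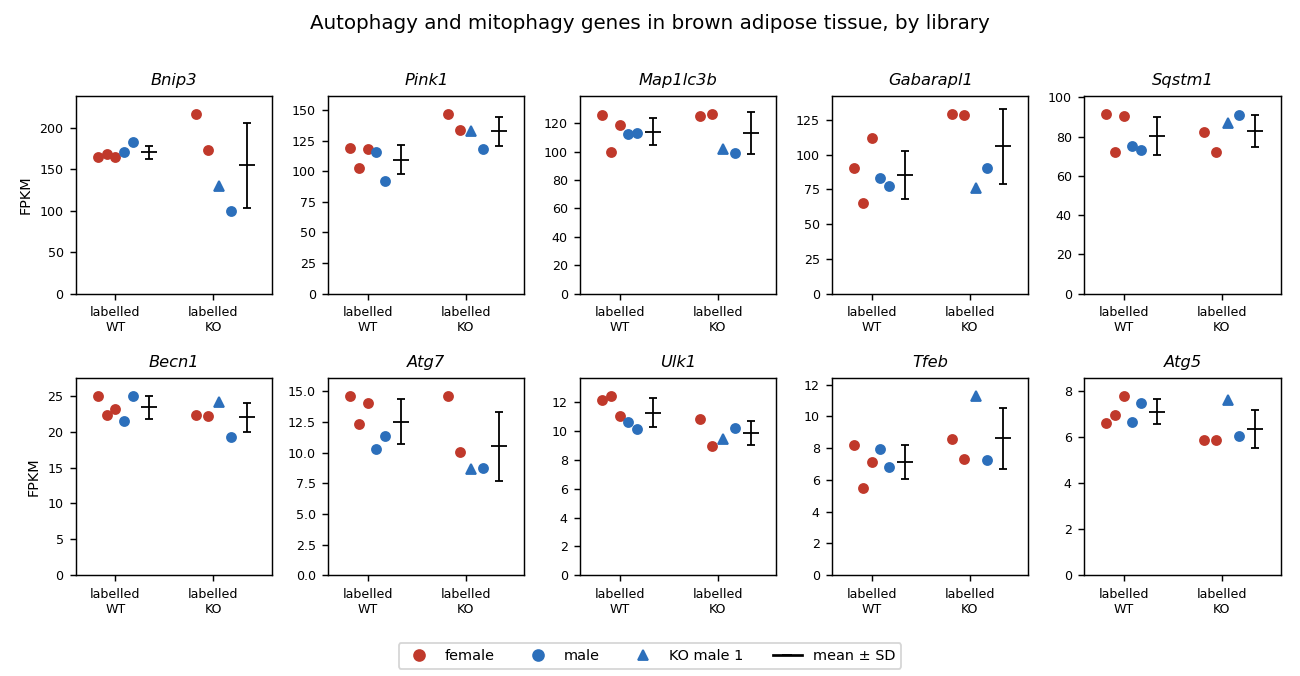
FPKM of the 10 genes in each library, from the highest mean level (*Bnip3*) to the lowest (*Atg5*), each panel with its own axis from 0. Red points are females, blue points males, the triangle is KO male 1, and bars give the mean ± SD of the 5 libraries labelled WT and the 4 labelled KO. The groups overlap in all 10 panels, and in *Bnip3* the KO females lie above all WT females while the KO males lie below all WT males.

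The first comparison asked which genes differed with the genotype label once sex was averaged out. None of the 10 members passed: 0 of 10 had a limma adjusted p under 0.05, where 3.6% of all genes tested did (529 genes, 1.43% higher and 2.17% lower in libraries labelled KO). Only *Pink1* had an unadjusted limma p under 0.05, a mark that 20.2% of all genes tested met. An ordinary linear model with the terms of the study's methods, read here with the sexes averaged rather than as the term for a single reference sex, gave 0 of 10 members at an unadjusted p under 0.01 against 7.54% of all genes. In none of the 10 did all libraries labelled KO lie on one side of all those labelled WT, which 9.07% of all genes did (3.03% above and 6.04% below). The members' median log2 fold change was -0.05, with 4 above 0 and 6 below, beside a median of -0.07 over all genes. With libraries centred on their medians the members were split 5 and 5. Among the members *Pink1* had the lowest unadjusted limma p with genotype and *Bnip3* the lowest for the interaction of genotype and sex. Neither passed after adjustment, and the promoters of these members are shown here.

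*Pink1* lies at chr4:138313409-138326307 on the minus strand and *Bnip3* at chr7:138890836-138909519, also on the minus strand (mm10, GENCODE M21). The 250 bases before the RefSeq start site (GRCm38.p6, the same build) are given 5′ to 3′ for *Pink1* at chr4:138326297-138326546 and for *Bnip3* at chr7:138909507-138909756. Capitals mark the letters CACGTG, the core of the E-box that TFEB and related factors bind.
Pink1: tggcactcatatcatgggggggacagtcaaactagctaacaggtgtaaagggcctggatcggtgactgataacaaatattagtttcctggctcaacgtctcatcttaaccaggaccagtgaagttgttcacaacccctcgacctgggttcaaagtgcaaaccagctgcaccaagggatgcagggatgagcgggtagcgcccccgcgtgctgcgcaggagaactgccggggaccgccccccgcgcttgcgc
Bnip3: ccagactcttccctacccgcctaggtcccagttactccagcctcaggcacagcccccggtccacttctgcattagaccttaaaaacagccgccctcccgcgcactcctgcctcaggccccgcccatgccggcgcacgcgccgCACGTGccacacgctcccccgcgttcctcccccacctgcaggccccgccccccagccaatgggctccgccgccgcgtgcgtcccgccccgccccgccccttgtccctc
RefSeq windows matched 9 of the 10 members by symbol, with 11 windows between them. CACGTG, which reads the same on both strands, was in 1 window each of *Bnip3*, *Atg5* and *Atg7*, among the 11 windows of members. It was in 6.02% of the 32851 windows of all genes. The window of *Atg7* (chr6:114670846-114671095) lies inside the annotated gene (chr6:114643097-114860614), before a start site further along it. The shorter ACGTG, searched on both strands and contained in CACGTG, was found in the same 3 windows of members and in 16.6% of all windows. TCACGTGA, which contains CACGTG, was in 0 members and in 0.785% of windows. The window of *Pink1* holds none of these letters.

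*Pink1* encodes the kinase that gathers on damaged mitochondria and recruits the ubiquitin ligase Parkin. Its level was 147 and 133 FPKM in KO females, 133 and 118 in KO males, 119, 103 and 118 in WT females and 115 and 91.9 in WT males. The groups overlap at their edge, since KO male 2 lay below WT female 1 and WT female 3, and the other KO libraries lay above all 5 labelled WT. Within each sex both KO libraries lay above every WT library, as they did for the brown adipocyte and the skeletal muscle marker sums. The part of either sum in the *Pink1* result was not tested. The log2 fold change was 0.30 (SE 0.09, 95% interval 0.08 to 0.51, limma adjusted p 0.129, unadjusted p 0.0145), 133 ± 11.9 (SD, n = 4) against 109 ± 11.9 FPKM (n = 5). It was 0.31 in females and 0.28 in males, with limma adjusted p of 0.375 and 0.370. Separation within both sexes in the same direction was met by *Pink1* alone among the members and by 13.9% of all genes. Without KO male 1 the log2 fold change of *Pink1* was 0.25, from a fit with 1 KO male left.

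*Bnip3* libraries labelled KO lay on opposite sides of WT in the sexes, a difference that did not pass. *Bnip3* measured 217 and 173 FPKM in KO females against 165, 168 and 164 in WT females. In KO males it measured 129 and 99.6 FPKM against 170.2 and 183 in WT males. WT libraries were therefore close together, at 170.1 ± 7.41 FPKM (SD, n = 5), while those labelled KO were spread over 155 ± 51.2 FPKM (n = 4). The log2 fold change was 0.22 in females (95% interval -0.09 to 0.54, limma adjusted p 0.536) and -0.64 in males (SE 0.15, 95% interval -0.98 to -0.29, limma adjusted p 0.0998). Without KO female 1 the value in females was 0.06, and without KO female 2 it was 0.38. The difference between them, the genotype by sex interaction, was -0.86 (SE 0.20, 95% interval -1.33 to -0.39) with an unadjusted p of 0.00296 and an adjusted p of 0.614 in limma, so it did not pass. Of all genes tested, 491 (3.35%) likewise had KO and WT libraries apart in both sexes and in opposite directions, and *Bnip3* was the member among them. KO male 1 had the highest lymphocyte and muscle marker sums, and KO male 2 the lowest *Bnip3*. The skeletal muscle sum was 5506 in KO male 2 and 5404 in KO female 1, which had the highest *Bnip3*. The part of cell make-up in the *Bnip3* values was not tested. Without KO male 1 the interaction was -1.05 and without KO male 2 it was -0.67, each from a fit with 1 KO male left. Averaged over the sexes, the log2 fold change of *Bnip3* was -0.21 (limma adjusted p 0.303). In the annotation 47.2% of the 50-base stretches of *Bnip3* transcripts also occur in transcripts of other genes, antisense ones among them, and strand was not stated for the counting, so its FPKM may hold fragments of those.

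**Figure D2:**
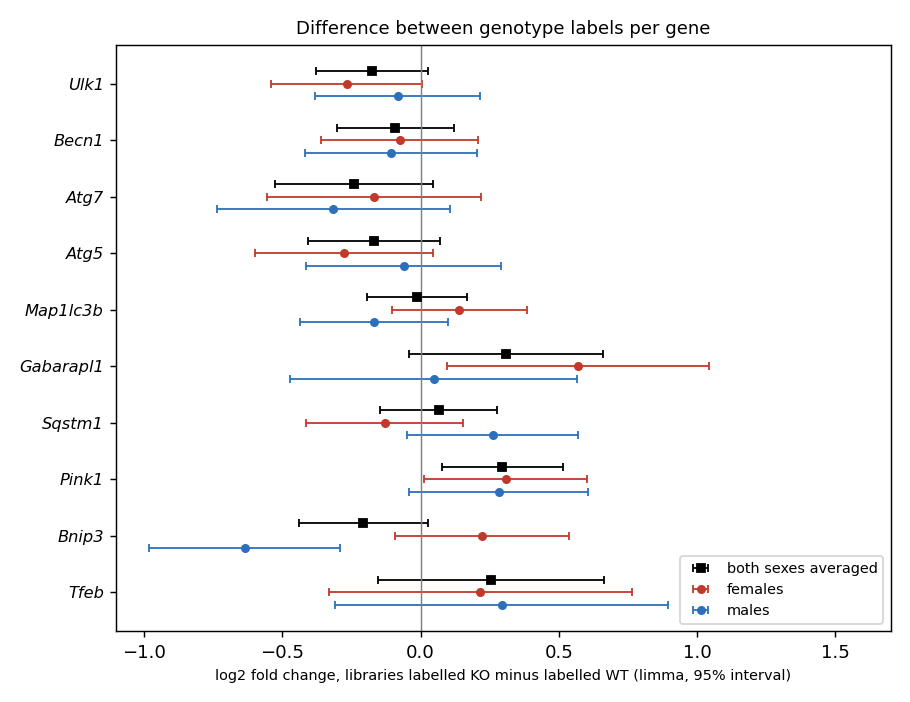
Log2 fold change of each member, libraries labelled KO minus labelled WT, with its 95% interval from limma, averaged over the sexes (black squares), in females (red) and in males (blue). The intervals of *Pink1* averaged over the sexes (0.08 to 0.51), of *Gabarapl1* and *Pink1* in females and of *Bnip3* in males leave out 0 before adjustment, and none passes after it.

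The ATG8 family proteins coat the growing membrane. *Map1lc3b*, which encodes LC3B, the usual marker of autophagosomes, was at 125 and 127 FPKM in KO females, 102 and 99.4 in KO males, 126, 99.8 and 119 in WT females and 113 and 113 in WT males. Its group means were 113 ± 14.8 and 114 ± 9.64 FPKM (SD, n = 4 and 5), and its log2 fold change of -0.01 (95% interval -0.20 to 0.17) took the opposite sign when libraries were centred on their medians (0.04) or quantile normalised (0.01). *Gabarapl1*, a GABARAP family member that can bind mitophagy receptors, was at 129 and 128 FPKM in KO females and at 90.0, 65.2 and 112 in WT females, so both KO females lay above the WT females. In males the labels overlapped, at 76.1 and 90.3 FPKM in KO and 83.0 and 77.5 in WT. The log2 fold change of *Gabarapl1* was 0.57 in females (95% interval 0.10 to 1.04, limma adjusted p 0.318), 0.05 in males and 0.31 over both (limma adjusted p 0.309). The interaction was -0.52 (95% interval -1.22 to 0.18, limma adjusted p 0.725). Of its 50-base stretches 23.1% are shared with *1700101I11Rik* on the opposite strand.

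The members of initiation, membrane marking and conjugation all had log2 fold changes below 0, as did 62.5% of all genes tested, and none of the 4 passed. *Ulk1*, the initiating kinase, was at 8.96 to 10.9 FPKM in KO and 10.2 to 12.5 in WT libraries (log2 fold change -0.17, 95% interval -0.38 to 0.03, limma adjusted p 0.318). *Atg7*, the activating enzyme of the conjugation system, was at 14.7, 10.04, 8.65 and 8.72 FPKM in KO and 10.3 to 14.6 in WT libraries, so 3 KO libraries lay below all WT libraries and KO female 1 above all of them (-0.24, limma adjusted p 0.327). *Atg5*, which joins ATG12 in the ligase that attaches the ATG8 proteins, was at 5.86 and 5.87 FPKM in KO females, 7.59 in KO male 1 and 6.06 in KO male 2, against 6.61 to 7.81 in WT libraries (-0.17, limma adjusted p 0.425). Without KO male 1, *Atg5* had a log2 fold change of -0.25, from a fit with 1 KO male left. *Becn1*, the Beclin 1 subunit of the lipid kinase complex, was nearly level, at 22.0 ± 1.98 and 23.4 ± 1.603 FPKM (SD, n = 4 and 5, limma adjusted p 0.664). Of its 50-base stretches 36.8% are shared with other genes, *Cntd1* on the opposite strand first.

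*Sqstm1*, which encodes the cargo receptor p62, was at 72.0 to 90.9 FPKM in KO and 72.2 to 91.6 in WT libraries (log2 fold change 0.07, 95% interval -0.14 to 0.28, limma adjusted p 0.776). Its log2 fold change was -0.13 in females and 0.26 in males, where both KO males (86.9 and 90.9 FPKM) lay above the WT males (75.2 and 73.2), with an interaction of 0.39 and a limma adjusted p of 0.709. *Tfeb*, the transcription factor that drives lysosome and autophagy genes, was at 8.60, 7.33, 11.3 and 7.22 FPKM in KO and 5.47 to 8.22 in WT libraries (0.25, 95% interval -0.15 to 0.66, limma adjusted p 0.487). KO male 1 had the highest *Tfeb*, and without it the log2 fold change in males went from 0.29 to -0.03. Marker sums of muscle, lymphocytes and macrophages were highest in that library too, and their part in the *Tfeb* and *Atg5* values was not tested.

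Within a single sex 0 of 10 members passed in limma, in females (0.0204% of all genes, 3 genes) and in males (0.0136%, 2 genes), and 0 of 10 passed for the interaction (0.0% of all genes). Unadjusted limma p fell under 0.05 for 2 members in females (*Gabarapl1* and *Pink1*; 12.7% of all genes), for 1 in males (*Bnip3*; 16.6%) and for 1 in the interaction (*Bnip3*; 7.01%). The ordinary linear model at an unadjusted p under 0.01 gave 0 of 10 members in each of these, where it gave 3.43%, 5.29% and 1.66% of all genes. Both KO females lay above every WT female for *Gabarapl1*, *Bnip3* and *Pink1* (13.8% of all genes) and below for *Ulk1* and *Atg5* (26.6%). Both KO males lay above both WT males for *Sqstm1* and *Pink1* (10.8% of all genes) and below for *Atg7*, *Map1lc3b* and *Bnip3* (28.7%).

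Between the sexes, averaged over the genotype labels, 0 of 10 members passed (limma adjusted p under 0.05; 0.0136% of all genes, 2 genes, did). The ordinary linear model at an unadjusted p under 0.01 gave 0 of 10 against 3.14% of all genes. The male minus female log2 difference was -0.41 for *Atg7* (95% interval -0.70 to -0.12, limma adjusted p 0.331). It was -0.34 for *Bnip3* (limma adjusted p 0.327) and -0.38 for *Gabarapl1* (limma adjusted p 0.453). These 3 had unadjusted limma p under 0.05, as did 10.4% of all genes.

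Across the 9 libraries the members did not move as a block. Of the 45 pairs of members, 30 had a Pearson r above 0, and the median r on log2 FPKM was 0.14. *Map1lc3b* and *Gabarapl1* followed each other most closely (r = 0.76, n = 9), and *Atg5* and *Gabarapl1* least (r = -0.53). The genes whose pattern was most like that of *Pink1* among 10877 genes with a mean of at least 1 FPKM were *Pop7* (r = 0.97), *l7Rn6* (0.96) and *Msrb2* (0.96). Those most like *Bnip3* were *Zfand2a* (0.95), *Gm15706* (0.95) and *Vps52* (0.94), and those most like *Gabarapl1* were *Kcnn1* (0.95), *Pex14* (0.95) and *Spg7* (0.95). These r describe the same 9 libraries, which share their depth and cell make-up, and carry no test.

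The rest of the pathway was read from 91 further genes in 9 lists by role, all of them tested. With genotype 2 rose and 1 fell, and 88 did not pass (limma adjusted p under 0.05), so 3.3% of them passed beside 3.6% of all genes. *Nipsnap1* and *Gbas* (the gene now named *Nipsnap2*), whose matrix proteins can be displayed on damaged mitochondria to draw in autophagy receptors, rose, and *Map1lc3a*, which encodes LC3A, fell. Another 8 genes had an unadjusted limma p under 0.05, 1 of them higher and 7 lower, which makes 11 of the 91 beside 20.2% of all genes. In 7 of the 91 (7.69%) the labels did not overlap, 2 higher and 5 lower in KO, beside 9.07% of all genes. The 5 were *Map1lc3a*, *Nrbf2*, *Wdr45b*, *Gla* and *Vcp*, the last named after its values were seen.

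*Nipsnap1* was at 10.99 and 9.89 FPKM in KO females, 9.49 and 10.3 in KO males, 5.72, 4.39 and 3.48 in WT females and 5.37 and 3.61 in WT males. Every library labelled KO lay well above every library labelled WT, in both sexes. The log2 fold change was 1.20 (SE 0.18, 95% interval 0.79 to 1.61, limma adjusted p 0.0288), 10.2 ± 0.643 against 4.52 ± 1.01 FPKM (SD, n = 4 and 5). *Gbas* was at 81.0 and 72.2 FPKM in KO females, 87.2 and 77.5 in KO males, 57.4, 58.4 and 51.6 in WT females and 59.4 and 54.9 in WT males. It too was separated in both sexes, with a log2 fold change of 0.49 (SE 0.07, 95% interval 0.32 to 0.67, limma adjusted p 0.0296). The skeletal muscle sum was also higher in every library labelled KO, and for 6 of its 9 markers every KO library lay above every WT library. KO male 1, with the highest muscle sum, had the highest *Gbas* and the lowest *Nipsnap1* of the 4, and the part of muscle in either result was not tested.

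*Map1lc3a* was at 85.1 and 92.4 FPKM in KO females, 80.1 and 74.9 in KO males, 149, 129 and 139 in WT females and 103 and 141 in WT males. No KO library reached the lowest WT library, WT male 1. The log2 fold change was -0.64 (SE 0.10, 95% interval -0.88 to -0.41, limma adjusted p 0.0320), nearly equal in females (-0.65) and males (-0.64). The ratio of *Map1lc3a* to *Map1lc3b* within a library, chosen after the values were seen, was 0.679 to 0.788 in KO and 0.915 to 1.29 in WT libraries. LC3A transcripts thus outnumbered those of LC3B per length in 4 of 5 WT libraries and in 0 of 4 KO libraries. *Gabarap* (-0.13, limma adjusted p 0.304) and *Gabarapl2* (-0.01) did not pass, and the sum of the 5 ATG8 genes overlapped, at 493 to 610 FPKM in KO and 544 to 641 in WT libraries. *Map1lc3a* (chr2:155276297-155278073) lies 2.05 Mb from *Ghrh* (chr2:157329497-157347506), the targeted gene, on chromosome 2. Within 5 Mb of *Ghrh* on either side, a window chosen after this was seen, 12 of 110 tested genes passed (10.9%, 6 higher and 6 lower). Of all genes tested 3.6% passed. No member and no other gene of the 91 lies within that distance. The animals were of a mixed background, and whether the genotype or linked sequence goes with the *Map1lc3a* level cannot be told apart. Among WT libraries WT male 1 had the lowest and WT female 1 the highest *Map1lc3a*, white adipocyte sum and fibroblast sum. Libraries labelled KO did not share such an order. The part of cell make-up in the *Map1lc3a* level was not tested.

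**Figure D3:**
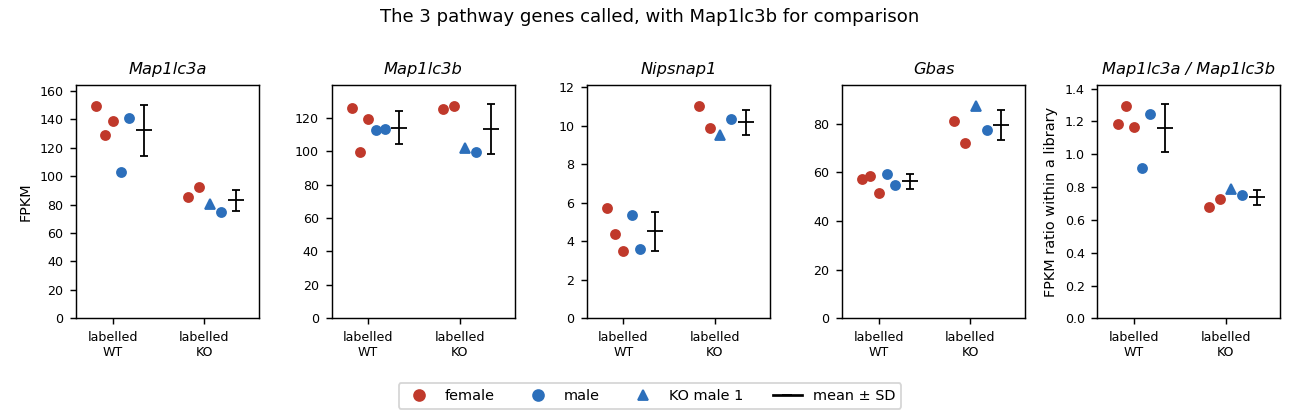
FPKM per library of *Map1lc3a*, *Map1lc3b*, *Nipsnap1* and *Gbas*, and the ratio of *Map1lc3a* to *Map1lc3b* within each library, with symbols as in the plot of the members. The libraries labelled KO and WT do not overlap for *Map1lc3a*, *Nipsnap1*, *Gbas* and the ratio, and do for *Map1lc3b*.

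These 3 calls depended on the libraries kept and on the model, and so did the calls over all genes. Leaving out WT female 1, 2 or 3 left 0 of the 91 called, and 9, 23 and 38 of all genes beside 529 in the main fit. Leaving out any other library leaves 1 animal in a group, so only direction and size of these 3 are read from those fits. The ordinary linear model gave 0 after adjustment (19 of all genes) and 5 at an unadjusted p under 0.01 (7.54% of all genes). Without the mean-variance trend limma gave 0 (34 of all genes). With libraries centred on their medians *Gbas* was not called, and 222 of all genes were. The direction of all 3 held in every alternative, with limma log2 fold changes of 1.04 to 1.34 for *Nipsnap1*, 0.45 to 0.55 for *Gbas* and -0.76 to -0.53 for *Map1lc3a*.

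By role, the lists for the remaining genes held no call. Among 8 initiation genes *Atg2b* (lipid transfer to the membrane) had a log2 fold change of -0.26 and *Atg9a* (the scramblase of the seed vesicles) of 0.10. Of 13 genes of the lipid kinase complex and phagophore lipid binding, 9 were below 0. *Nrbf2*, a modulator of that complex, was at 10.5 to 12.6 FPKM in KO and 14.2 to 22.5 in WT libraries (-0.55, limma adjusted p 0.0827), and 65.8% of its stretches are shared with other genes, *Gm6740* first. *Wdr45b*, a lipid-binding WIPI protein, was at 9.91 to 11.6 against 12.0 to 13.3 FPKM (-0.22, limma adjusted p 0.151). Of 9 conjugation genes, *Atg16l1*, which places the ligase on the membrane, had -0.31 (limma adjusted p 0.110) and the protease gene *Atg4d* had 0.33 (limma adjusted p 0.244). Of 6 cargo receptors, *Wdfy3* had -0.33 (limma adjusted p 0.203) and *Nbr1* -0.11 (limma adjusted p 0.368).

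Of the 18 mitophagy genes, 8 were above 0, *Nipsnap1* and *Gbas* among them, and 10 below. The 13 fusion genes, which join autophagosome and lysosome, had 7 above 0, with *Vps41* at -0.15 (limma adjusted p 0.271) and *Tecpr1* at 0.30 (limma adjusted p 0.310). Lysosome genes leaned lower, with 14 of 15 below 0 and a median log2 fold change of -0.15 beside -0.07 over all genes, and 0 of 15 passed. That count was 11 of 15 with libraries centred on their medians and 12 of 15 with quantile normalisation. *Gla*, alpha-galactosidase A, was at 1.02 to 1.23 FPKM in KO and 1.32 to 1.55 in WT libraries (-0.37, limma adjusted p 0.165), and *Neu1*, a sialidase, at 4.39 to 5.28 against 5.21 to 6.22 FPKM (-0.28, limma adjusted p 0.130). Of 6 transcriptional regulators, *Mitf*, a relative of *Tfeb*, had -0.28 (limma adjusted p 0.497) and the repressor *Zkscan3* 0.19 (limma adjusted p 0.342). Over all 91 genes 63 were below 0, 47 with median centring and 50 with quantile normalisation, beside 62.5% of all genes tested, and 52.5% of them with median centring.

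**Figure D4:**
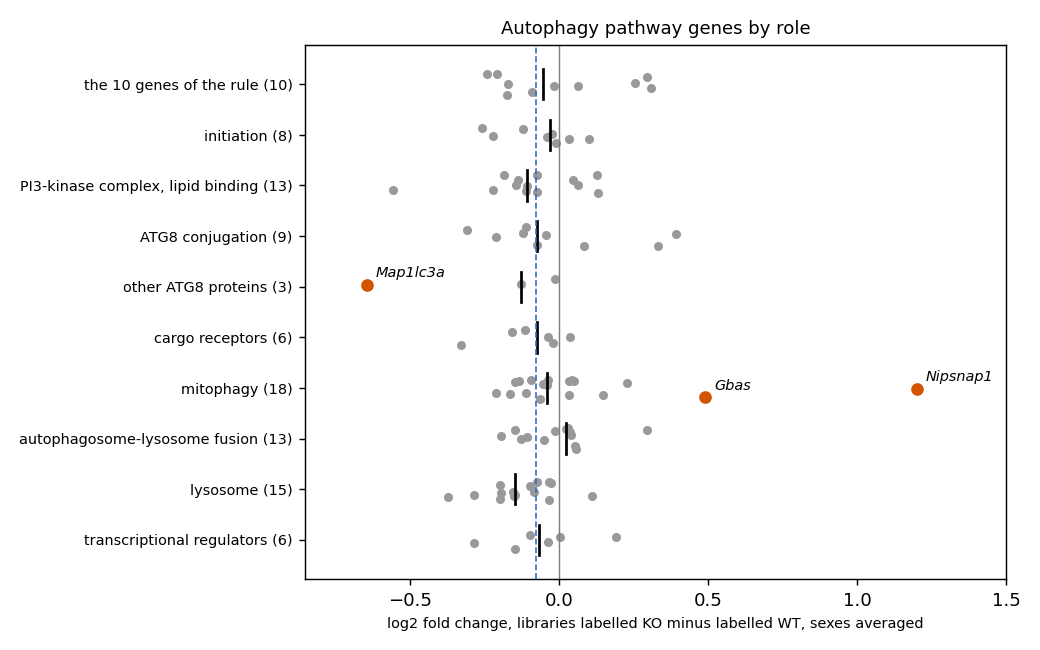
Log2 fold change, libraries labelled KO minus labelled WT with the sexes averaged, of the 10 members and of the 91 further pathway genes by role (number of genes in brackets). Each point is a gene, orange points have a limma adjusted p under 0.05, black bars are the list medians and the dashed line is the median of all genes tested (-0.07). *Nipsnap1* and *Gbas* lie to the right and *Map1lc3a* to the left of the rest. The count of lists leaning left is smaller when libraries are centred on their medians.

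In the other comparisons 0 of the 91 passed in limma, where 7 had an unadjusted p under 0.05 in females (12.7% of all genes did), 16 in males (16.6%), 2 in the interaction (7.01%) and 6 between the sexes (10.4%). The ordinary linear model at an unadjusted p under 0.01 gave 5, 4, 2 and 3 of the 91, beside 3.43%, 5.29%, 1.66% and 3.14% of all genes. *Nipsnap1* had a log2 fold change of 1.23 in females and 1.17 in males, and *Gbas* of 0.46 and 0.53, with limma adjusted p of 0.134 and 0.0973 for *Nipsnap1* and 0.163 and 0.0896 for *Gbas*.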

How the data were processed

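RNA of BAT from 9 mice was sequenced after poly A selection as paired reads of 50 bases. The authors deposited 1 table of FPKM per library. Their methods and processing notes name TopHat 2.0.11 and Bowtie for alignment to mm10, after conversion by bcl2fastq 1.8.4. No fragment counts are used here. FPKM were log2 transformed with no pseudocount, genes at 0 in any library were left out, and no library was left out. limma with a mean-variance trend was fitted to a mean per group of genotype and sex over all 9 libraries, with Benjamini-Hochberg adjustment over the 14675 genes tested, called under 0.05. P-values measure the spread between these animals only.

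Members and lists were chosen with earlier results of these data known. Named genes are the members, the 2 genes of lowest limma p in each further list, any further gene called with genotype, the 3 genes most correlated with each of 3 members, and *Ghrh*. Alternatives were other pseudocounts (0.1 and 1), filters, scalings and models, and leaving out each library. Positions are from GENCODE M21, and sequences from RefSeq. The model was also run on simulated libraries with independent noise and changes larger than those of the members. That run does not cover small differences or shifts that libraries share. Software was limma 3.58.1 in R 4.3.3, and scipy 1.17.1, matplotlib 3.10.9, numpy 2.4.6 and pandas 2.3.3 in Python 3.11.15.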

Additional observations from a re-analysis of the deposited data

Results flagged for a closer look

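The 10 members and the 18 further pathway genes chosen by the naming rule were each checked for a library far from the rest of its genotype label, in 56 groups of libraries, and chance gives such a mark in about 1 of 20 groups. *Atg5* in KO male 1 was at 7.59 FPKM, while the other 3 libraries labelled KO were at 5.86 to 6.06. *Tecpr1* in WT female 3 was at 24.7 FPKM and in the other WT libraries at 15.3 to 16.6. *Neu1* in WT female 2 was at 5.21 FPKM, below the 5.96 to 6.22 of the other WT libraries. *Bnip3* was marked because both KO females were above the WT females and both KO males below the WT males. Of all genes tested, 3.35% had the labels apart in both sexes and in opposite directions. The interaction was -0.86 on the log2 scale, with a limma adjusted p of 0.614.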

How the results depend on the processing

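No member was called in any comparison under any alternative run. Of the 91 further genes, 3 were called with genotype, 0 with no mean-variance trend, 0 by the ordinary linear model after adjustment and 5 at its unadjusted p under 0.01. Leaving out WT female 1, 2 or 3 gave 0. At that unadjusted p the count was 5 in females, 4 in males, 2 in the interaction and 3 between the sexes, against 0 in each. Leaving out any library other than a WT female leaves 1 animal in a group, and calls over all genes moved widely in those fits. Counts of calls for those fits are therefore not given. Over all genes the count with genotype, 529, was 222 with median centring, 444 with quantile normalisation, 170 with no filter, 34 with no trend and 19 by the ordinary linear model after adjustment. It was 9, 23 and 38 with WT female 1, 2 or 3 left out.

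Of 1262 log2 fold changes under the alternatives, 1196 kept direction and side of the threshold, 25 lost the call, 4 gained it and 37 turned sign, in 14 results of main size at most 0.29. Turned values were 0.0439 (median centring) and 0.0105 (quantile) for *Map1lc3b* with genotype, 0.0330 (median centring) for *Becn1* in females, 0.0445 for *Becn1* and 0.0613 for *Pink1* (quantile) and -0.0243 for *Tfeb* (median centring) in the interaction, 0.00364 (quantile) for *Becn1* between the sexes, and -0.0440 (median centring) and -0.00686 (model without interaction) for *Sqstm1* between the sexes.
With each library left out, these crossed 0: *Map1lc3b* with genotype (-0.0636 to 0.0203), *Atg7* in females (-0.44 to 0.10), and in males *Becn1* (-0.27 to 0.0537), *Atg5* (-0.22 to 0.10), *Gabarapl1* (-0.0759 to 0.17) and *Tfeb* (-0.0301 to 0.62). So did, in the interaction, *Becn1* (-0.19 to 0.13), *Atg7* (-0.42 to 0.13), *Tfeb* (-0.25 to 0.40) and *Pink1* (-0.19 to 0.14), and between the sexes *Becn1* (-0.11 to 0.0470), *Sqstm1* (-0.0451 to 0.0599) and *Tfeb* (-0.0131 to 0.31). The cause was not tested. No paired analysis was possible because the labels give each animal its own number and no replicate number shared between groups. Each group holds 2 or 3 animals, and absolute depth is not known.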
